A study of Mus musculus with 18 samples.

Results

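The surface cells of the colon take up salt and water from the gut contents, and 10 genes of this transport machinery in sorted mouse colon epithelium are described here: Fxyd4, Scnn1a, Scnn1g, Slc9a3, Slc26a3, Cftr, Car1, Car4, Aqp8 and Aqp4. They were chosen by reading measured differences between these groups, so their levels and differences are given as a description, with no p-value. Where the fit over all genes called a member, the call is part of that description and supports nothing. The members are the probes that the array's table labels with one of these symbols, which gave 15 of 45281 probes. These belong to 9 of the 10 genes, and 12 of the 15 probes, at least 1 for each of the 9 genes, were detected on enough arrays to enter the fit (21938 probes of 14877 genes in all). No probe carries the symbol of Slc9a3, which is described separately below under an older name.

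Messenger RNA was read on Illumina MouseWG-6 BeadChips, on which each transcript is measured by beads that carry a probe of 50 bases. The cells were sorted by flow cytometry from the colon of wild-type mice (WT) and of mice that lack the methyl-CpG-binding protein Mbd2 throughout the body (KO, on the C57BL/6 background), so the deletion was not restricted to the epithelium. The gate kept EpCAM+ cells and left out cells that carry the leukocyte marker CD45, the T cell marker CD3 or a surface marker of macrophages. Animals of both genotypes had received 2% dextran sulphate sodium (DSS) in their drinking water, a polymer that injures the gut lining, or were left untreated (naive). This gave the groups DSS_WT, DSS_KO, Naive_WT and Naive_KO with 4 samples each. A sample may pool several mice, and the labels give no age, batch or length of DSS treatment for single samples, so the errors measure the spread between these samples, which may be partly technical. A pair of repeat arrays, 4R and 5R, was averaged with arrays 4 (DSS_WT) and 5 (DSS_KO), which they resembled more closely than any other array of their group did.

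In the colon, sodium enters the surface cell at the gut side through the epithelial sodium channel and through sodium/proton exchange, and the sodium/potassium pump expels it on the blood side. Chloride is taken up in exchange for bicarbonate, which carbonic anhydrases supply from carbon dioxide, and water follows through the tissue and through aquaporin channels. In the crypts, the chloride channel Cftr works in the opposite direction and drives fluid secretion. The hormone aldosterone raises the activity of the sodium channel, and FXYD proteins tune the sodium/potassium pump.

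The number of probes detected on an array ran from 18851 to 20618 (41.6% to 45.5%). The probe of Mbd2 was detected on 0 of 18 arrays, with log2 signals of 4.31 to 4.68 in WT and 4.34 to 4.56 in KO samples, so it gives no check of the genotype labels. Markers of colon epithelium were high in every sample: the mean of 10 genes, among them Epcam and Cdh1, lay between 11.87 and 12.17 on the log2 scale. All levels below are log2 signals after background correction and quantile normalization, and a log2 difference of 1 is a doubling. A gene is called in a comparison when limma's adjusted p-value is under 0.01 and the log2 difference is at least 1 in size.

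The genes Fxyd4 and Aqp8 carried the largest differences among the members, and the probes that measured them are shown first because the overlap between probes decides whether they are separate readings of a gene. The 2 probes of Fxyd4 share 46 of their 50 bases (capitals), so they are close to a repeated reading of 1 site. In the deposited table they lie on the minus strand of chromosome 6, the first at 117884464 to 117884513 and the second at 117884459 to 117884508. These positions are 5 bases apart, whereas the sequences are shifted by 4, so the table disagrees with its own probes by 1 base. The table does not state a genome build or the part of the gene, and its positions do not belong to GRCm38.
Fxyd4, dimmer probe: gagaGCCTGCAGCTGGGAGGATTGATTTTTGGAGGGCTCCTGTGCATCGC
Fxyd4, brighter probe: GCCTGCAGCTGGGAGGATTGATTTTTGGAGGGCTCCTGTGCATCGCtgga
The 2 probes of Aqp8, in contrast, start 235 bases apart in the transcript and share no base. The dimmer one is printed as an example, with no part marked, and lies on the plus strand of chromosome 7 at 130610138 to 130610187 in the coordinates of the table.
Aqp8, dimmer probe: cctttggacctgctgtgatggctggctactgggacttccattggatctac

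Mbd2 binds DNA at methylated CG pairs, and the number of CG pairs in front of the members' start sites was counted for this reason, although DNA methylation was not measured here. The windows are the 250 bases before the annotated start in the RefSeq promoter table (GRCm38.p6), which holds 7 of the 10 genes. Among 32851 windows the median was 6 CG pairs, and 7.87% held 0. The windows of Fxyd4 and Aqp8 are printed with each CG in capitals.
Fxyd4, chr6:117937336-117937585, minus strand: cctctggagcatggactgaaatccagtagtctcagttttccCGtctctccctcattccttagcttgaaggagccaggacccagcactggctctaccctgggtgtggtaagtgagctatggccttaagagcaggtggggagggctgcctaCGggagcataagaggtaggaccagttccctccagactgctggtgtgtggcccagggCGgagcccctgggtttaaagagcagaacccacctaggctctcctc
Aqp8, chr7:123462044-123462293, plus strand: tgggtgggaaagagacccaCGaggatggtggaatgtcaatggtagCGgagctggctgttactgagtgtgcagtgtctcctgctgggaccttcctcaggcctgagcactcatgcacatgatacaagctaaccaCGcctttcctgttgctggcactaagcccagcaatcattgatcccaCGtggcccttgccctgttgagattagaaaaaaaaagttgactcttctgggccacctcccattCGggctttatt
The Fxyd4 window held 3 CG pairs, and 37.8% of all windows held as many or fewer. The Aqp8 window held 5 (49.6% of all windows with as many or fewer), Slc26a3 held 1 (18.8%) and Car4 held 11 (66.5%). At the other end stood Scnn1g with 16 CG pairs (76.5%), Slc9a3 with 19 (82.1%) and Cftr with 30 (94.8%). The letters AGAACA or their reverse complement TGTTCT, part of the sequence that receptors for steroid hormones recognise, occurred in 0 of the 7 windows and in 16.1% of all windows, which says only that these letters are not in these windows.

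Fxyd4, a FXYD protein also known as CHIF that raises the affinity of the sodium/potassium pump for sodium and is induced by aldosterone in the colon, was highest in Naive_WT and lowest in DSS_KO. Its log2 signals were 9.47, 9.94, 9.47 and 11.00 in Naive_WT and 8.41, 8.94, 6.63 and 8.77 in Naive_KO. With DSS they were 9.46, 9.21, 8.53 and 7.88 in WT and 5.25, 4.65, 6.57 and 5.21 in KO. Every KO sample lay below every WT sample of the same treatment, and within each genotype every DSS sample lay below every naive sample. The separation by DSS was narrow. In WT the highest DSS value was 9.457 and the lowest naive value 9.466, and in KO they were 6.571 and 6.629. The probe was detected on 4 of the 5 DSS_KO arrays and on all arrays of the other groups, so the lowest DSS_KO values sit at the edge of the background.

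The mean of Fxyd4 was 8.77 ± 0.71 (SD, n = 4) in DSS_WT and 5.42 ± 0.81 in DSS_KO, a log2 difference of -3.35 (SE 0.509), or 10.2-fold lower in DSS_KO. Since DSS_KO lay at the edge of the background, the folds against this group depend on the background correction. Without DSS the difference between KO and WT was -1.78, or 3.43-fold, between means of 8.19 ± 1.06 and 9.97 ± 0.72. DSS against naive gave -1.20 in WT and -2.77 in KO, or 2.30-fold and 6.80-fold lower. The dimmer probe gave -3.02, -1.97, -1.06 and -2.11 in the same 4 comparisons (SE 0.495), and with it DSS_WT and Naive_WT overlapped.

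The size of the Fxyd4 difference between DSS_KO and DSS_WT depended on the background correction: without it the log2 difference was -1.90, and Fxyd4 was not called. The same held for DSS_KO against Naive_KO, which gave -1.49 and no call without background correction. The difference between DSS_KO and DSS_WT was -3.29 without DSS_KO replicate 5, where the call was lost as well. Leaving out any other single sample, the value stayed between -3.73 and -3.09 with the call kept.

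Scnn1a encodes the alpha subunit of the epithelial sodium channel, through which sodium enters the surface cell. Its log2 signals were 8.94, 9.18, 8.56 and 8.79 in Naive_WT, 8.76, 9.09, 8.10 and 9.04 in Naive_KO, 8.70, 9.70, 8.68 and 8.76 in DSS_WT and 8.18, 7.94, 8.85 and 8.16 in DSS_KO. The groups overlapped in all 4 comparisons. The mean of DSS_KO lay 0.68 below that of DSS_WT on the log2 scale (-0.68, SE 0.259), with 1 DSS_KO sample, replicate 7, above 3 of the 4 DSS_WT samples. Without DSS_WT replicate 2, the highest of its group, the difference was -0.43. The other differences were -0.12 between the naive genotypes, 0.094 between DSS_WT and Naive_WT and -0.47 between DSS_KO and Naive_KO. The first of these turned to 0.098 without Naive_KO replicate 15, and the second to -0.15 without DSS_WT replicate 2 and fell just below 0 without Naive_WT replicate 11. Across all alternatives of processing and samples, DSS_WT against Naive_WT ran from -0.15 to 0.37 and DSS_KO against Naive_KO from -0.68 to -0.26.

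Scnn1g, the gamma subunit of the same channel, was close to background. Its probe was detected on 4 of 18 arrays (2 of 5 DSS_WT, 0 of 5 DSS_KO, 1 of 4 Naive_WT and 1 of 4 Naive_KO), with log2 signals between 4.40 and 5.48 over all samples, and no fold is given. The beta subunit Scnn1b, which was on the list of other transport genes, had means of 7.20 ± 0.31 in Naive_WT, 6.81 ± 0.59 in Naive_KO, 7.70 ± 0.22 in DSS_WT and 7.00 ± 0.31 in DSS_KO. Every DSS_KO sample (6.72 to 7.45) lay below every DSS_WT sample (7.56 to 8.03), but the log2 difference of -0.70 (SE 0.243) did not pass the test (limma, adjusted p = 0.0975).

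Slc9a3 is the sodium/proton exchanger NHE3 of the gut-side membrane. In a search made after the values were seen, 2 probes labelled 9030624O13Rik were found, a former name that RefSeq lists as a synonym of Slc9a3. One of them was detected on 0 of 18 arrays. The other was detected on all 18, with log2 signals of 8.71, 7.39, 8.12 and 7.16 in Naive_WT and 9.12, 8.97, 10.33 and 9.06 in Naive_KO, so that every Naive_KO sample lay above every Naive_WT sample (1.52, SE 0.528). With DSS the signals were 8.01, 8.96, 7.26 and 6.94 in WT and 9.03, 8.14, 9.82 and 7.16 in KO, and these groups overlapped (0.74). Without single samples this difference ran from 0.32 (without DSS_KO replicate 7) to 1.20 (without DSS_KO replicate 8), with 0.46 without DSS_WT replicate 4 and 1.13 without DSS_WT replicate 2. DSS against naive gave -0.055 in WT, which took either sign without single samples (-0.45 to 0.23). In KO it gave -0.83, or -0.38 without DSS_KO replicate 8, -0.51 without Naive_KO replicate 15 and -1.26 without DSS_KO replicate 7.

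**Figure D1:**
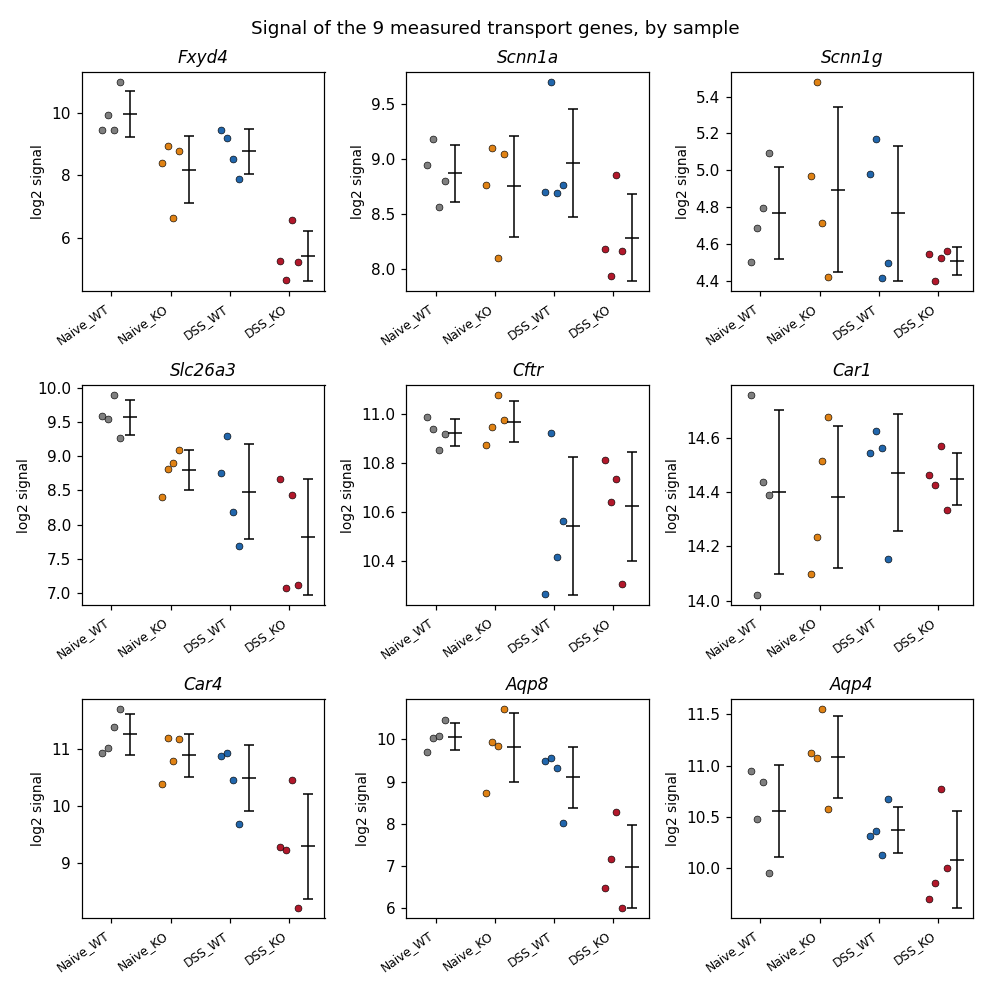
Each panel shows the log2 signal (vertical axis, a separate range for each gene) of 1 member in the 4 groups; points are the 16 samples, and the bar beside them is the mean ± SD of 4 samples. For Fxyd4 the DSS_KO points (4.65 to 6.57) lie below all others, while for Car1 the 4 groups cover the same range.

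Slc26a3, or DRA, exchanges chloride for bicarbonate at the gut-side membrane and is the main route of chloride uptake in the colon. Its log2 signals were 9.59, 9.54, 9.89 and 9.27 in Naive_WT and 8.40, 8.81, 8.91 and 9.08 in Naive_KO, so Naive_KO lay below Naive_WT with no overlap (-0.77, SE 0.357). With DSS they were 8.75, 9.29, 8.18 and 7.69 in WT and 8.66, 7.07, 8.44 and 7.11 in KO. Both DSS groups spread over more than 1 log2 unit and overlapped (-0.66), and the difference was -0.39 without DSS_WT replicate 2, -0.41 without DSS_KO replicate 6, -0.42 without DSS_KO replicate 8 and -0.33 with 18 separate arrays. DSS against naive gave -1.09 in WT and -0.98 in KO, with 1 DSS_WT sample inside the Naive_WT range and 2 DSS_KO samples inside that of Naive_KO. These values rest on a probe drawn from a cDNA clone. The probe drawn from the RefSeq transcript was detected on 3 of 18 arrays and the last probe on 0, and neither entered the fit.

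Cftr, the chloride channel of the crypt cells, moved little. Its log2 signals lay between 10.85 and 10.99 in Naive_WT, between 10.87 and 11.08 in Naive_KO, between 10.27 and 10.92 in DSS_WT and between 10.31 and 10.81 in DSS_KO. Every DSS_KO sample was below every Naive_KO sample (-0.35, SE 0.136), and in WT the mean was lower with DSS by a similar amount (-0.38) with 1 DSS_WT sample inside the naive range. The KO and WT means differed by 0.081 with DSS and by 0.044 without it, and both turned below 0 with scaling to a common median (-0.067 and -0.031). That scaling also brought the differences between DSS and naive to -0.15 in WT and -0.19 in KO. It raised the median of all probes to 0.16 and 0.12 in these comparisons. The second Cftr probe was detected on 0 of 18 arrays.

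The carbonic anhydrases Car1, a soluble enzyme, and Car4, which is anchored to the outer face of the cell membrane, both speed the conversion of carbon dioxide and water to bicarbonate and protons. Car4 read 10.92, 11.01, 11.38 and 11.70 in Naive_WT, 10.39, 11.19, 10.78 and 11.17 in Naive_KO, 10.88, 10.92, 10.45 and 9.69 in DSS_WT and 9.28, 9.22, 10.46 and 8.21 in DSS_KO. Of the 4 DSS_KO samples 3 lay below every other sample of the series, and replicate 7 lay among those of DSS_WT. The log2 differences of Car4 were -1.19 in DSS_KO against DSS_WT, -0.37 in Naive_KO against Naive_WT, -0.77 in DSS_WT against Naive_WT and -1.59 in DSS_KO against Naive_KO (SE 0.369), and the groups overlapped in each. The difference in WT was -0.50 without DSS_WT replicate 4, and that between the naive groups was -0.20 without Naive_KO replicate 13 and -0.22 without Naive_WT replicate 12.

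The probe of Car1 was bright in every sample, with log2 signals from 14.02 to 14.76. The 4 group means lay between 14.38 and 14.47, and no comparison differed by more than 0.071 (SE 0.160). A signal so near the top of the scale can understate a difference, and whether it did was not tested.

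Aqp8, a water channel of colonocytes, had its lowest mean in DSS_KO, as Car4 did. Its range was wider, and its groups overlapped in fewer comparisons than those of Car4. Its log2 signals were 9.71, 10.02, 10.08 and 10.46 in Naive_WT, 8.73, 9.94, 9.84 and 10.72 in Naive_KO, 9.50, 9.55, 9.33 and 8.02 in DSS_WT and 6.48, 7.16, 8.27 and 6.00 in DSS_KO. The naive groups overlapped, and within each genotype every DSS sample lay below every naive sample. The highest DSS_KO value, of replicate 7, exceeded the lowest DSS_WT value, of replicate 4, so that these groups overlapped by 1 pair of samples.

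The means of Aqp8 were 10.07 ± 0.31 in Naive_WT, 9.81 ± 0.82 in Naive_KO, 9.10 ± 0.72 in DSS_WT and 6.98 ± 0.99 in DSS_KO (SD, n = 4). DSS_KO was 7.11-fold below Naive_KO (-2.83, SE 0.457), which placed Aqp8 at position 4 from the lowest of 14877 genes. Since the members were chosen with such differences in view, this position supports nothing. DSS_KO was 4.35-fold below DSS_WT (-2.12), and without DSS the genotypes differed by -0.26, which turned to 0.098 without Naive_KO replicate 13. In WT, DSS against naive gave -0.97, or -0.61 without DSS_WT replicate 4. The second, separate probe gave -2.78, -1.99, -0.28 and -1.06 in the same order.

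**Figure D2:**
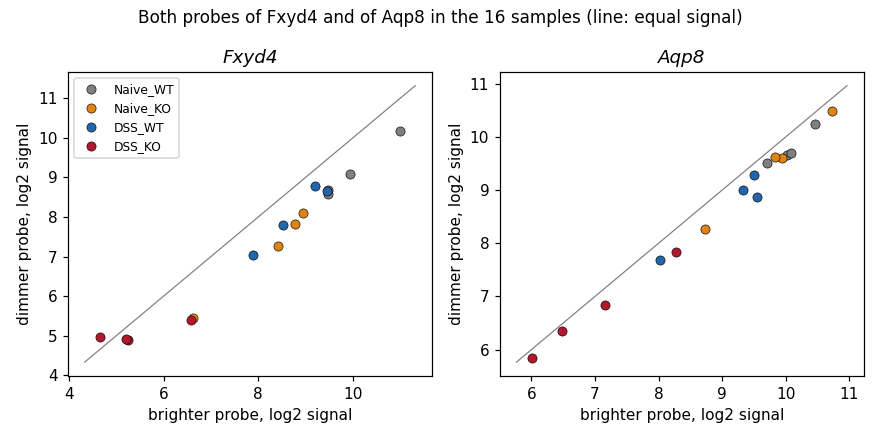
Each point is 1 of the 16 samples, with the log2 signal of the brighter probe on the horizontal and of the dimmer probe on the vertical axis, and the line marks equal signal. The 2 Aqp8 probes, which share no base, follow each other (Pearson's r = 0.995 over 16 samples), as do the overlapping Fxyd4 probes (r = 0.981), whose dimmer probe flattens near 5.

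Aqp4, a water channel of the blood-side membrane, behaved otherwise. Its log2 signals were 10.95, 10.48, 10.84 and 9.95 in Naive_WT, 11.12, 11.07, 11.55 and 10.58 in Naive_KO, 10.32, 10.36, 10.13 and 10.68 in DSS_WT and 9.70, 9.86, 10.77 and 10.00 in DSS_KO. All groups overlapped. The mean of Naive_KO lay above Naive_WT (0.53, SE 0.252, and 0.32 without Naive_WT replicate 12) and that of DSS_KO below DSS_WT (-0.29), a value that ran from -0.52 without DSS_KO replicate 7 to -0.16 without DSS_KO replicate 5 and was -0.091 with the mean of both Aqp4 probes. DSS against naive gave -0.18 in WT, which turned to 0.059 with scaling to a common median, and -0.998 in KO. A second, dim probe ranged only from 5.08 to 5.75, and the mean of both probes gave -0.61 in KO.

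**Figure D3:**
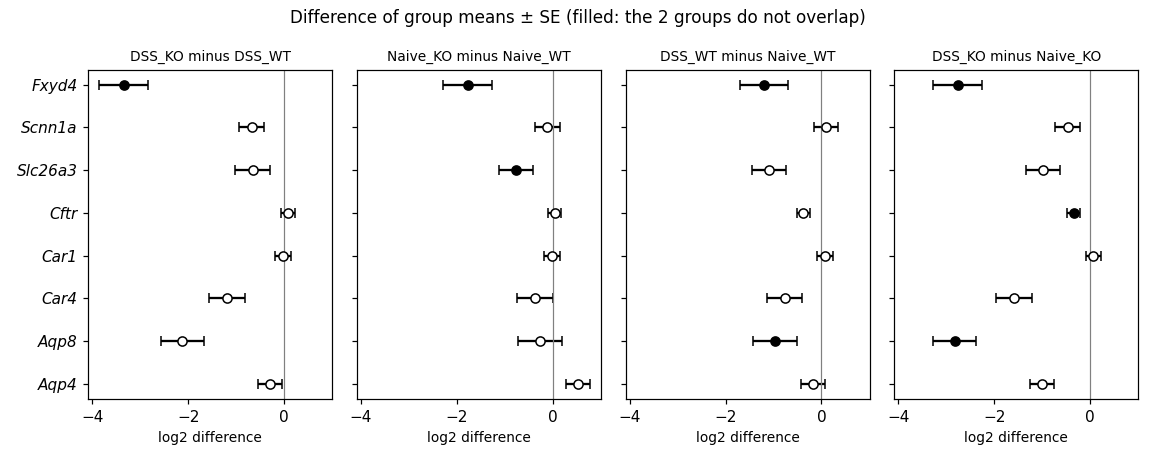
Points are log2 differences of group means with their SE (horizontal axis) for 8 members in 4 comparisons; filled points are pairs of groups with no overlap between samples. Fxyd4 is filled in all 4 panels, by a narrow margin in both panels of DSS against naive. Aqp8 is filled in both panels of DSS against naive, and Car1 stays at 0 throughout.

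Counted over the 9 measured members, the KO mean was below the WT mean for 8 genes with DSS and for 6 without it, and the DSS mean was below the naive mean for 7 genes in WT and 8 in KO, beside 53.4%, 51.2%, 48.4% and 51.5% of all genes below 0 in these comparisons. The counts include Scnn1g, which was near background, and Car1, whose sign changed under several alternatives. They leave out Slc9a3, read under its older name, whose KO mean lay above the WT mean with DSS (0.74) and without it (1.52). The DSS mean of Slc9a3 lay below the naive mean in WT (-0.055) and in KO (-0.83). With DSS, 1 member (Fxyd4) was called lower in KO and 0 higher, against 0.444% of all genes called lower, 0.484% called higher and 0.928% called in either direction. Without DSS 0 members were called (0.309% of all genes called lower, 0.43% higher, 0.739% in either direction). DSS against naive gave 0 called members in WT (0.397% lower, 1.6% higher, 2% in either direction) and 2 in KO, Aqp8 and Fxyd4 (0.679% lower, 1.3% higher, 1.98% in either direction). Since the members were chosen with these comparisons in view, nothing is read from their share of calls. The comparisons share groups with each other and are given side by side for this reason.

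Groups without overlap, with the first group lower, were found for 1 member in DSS_KO against DSS_WT (9.23% of all genes), 2 in Naive_KO against Naive_WT (5.93%), 2 in DSS_WT against Naive_WT (7.88%) and 3 in DSS_KO against Naive_KO (8.23%). For 0 of the 9 measured members was the first group higher without overlap, beside 5.85%, 6.51%, 10.1% and 8.21% of all genes in the same order (15.1%, 12.4%, 17.9% and 16.4% in either direction). Slc9a3, which is outside the 9, was higher without overlap in Naive_KO than in Naive_WT (1.52). The median log2 difference of the 9 members was -0.66, -0.12, -0.38 and -0.98 in the same order, beside -0.020, -0.0082, 0.011 and -0.0093 over all genes. The difference between the genotype effects with and without DSS was -1.86 for Aqp8 (SE 0.647), -1.57 for Fxyd4 (SE 0.719), -0.82 for Car4 (SE 0.522), -0.81 for Aqp4 (SE 0.356), -0.56 for Scnn1a (SE 0.366) and between -0.0044 and 0.11 for Car1, Cftr and Slc26a3. It read -0.46 for Fxyd4 without background correction, -0.46 for Car4 without DSS_KO replicate 8, -0.46 for Aqp4 with the mean of its probes and -0.31 for Scnn1a without DSS_WT replicate 2. Over all genes limma called 0 genes for it (0% of 14877, with 1578 genes at an unadjusted p under 0.05).

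Several calls of the members turned on single samples. Aqp8 was also called for DSS_KO against DSS_WT without DSS_WT replicate 4 (-2.48), DSS_KO replicate 7 (-2.55), Naive_KO replicate 13 (-2.12) or Naive_KO replicate 16 (-2.12). For DSS_KO against Naive_KO, Aqp8 kept its call under all 25 alternatives and Fxyd4 under 17. Fxyd4 lost it without DSS_KO replicate 5 (-2.71), 6 (-2.51) or 8 (-2.70) and without Naive_KO replicate 14 (-2.51) or 16 (-2.57). Without DSS_KO replicate 7, Car4 (-1.98) and Aqp4 (-1.23) were called as well.

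Within DSS_KO, replicate 7 held the highest value of 6 of the 8 members above background, Fxyd4, Scnn1a, Car1, Car4, Aqp8 and Aqp4. Within DSS_WT, replicate 4 held the lowest value of 5 of them, Fxyd4, Slc26a3, Car1, Car4 and Aqp8. Naive_KO replicate 13 likewise held the lowest value of 5, Slc26a3, Cftr, Car1, Car4 and Aqp8. DSS_WT replicate 2 held the highest value of 6, Scnn1a, Slc26a3, Cftr, Car1, Car4 and Aqp8. In Naive_WT no sample held the highest or the lowest value of more than 3 members. These counts are a description with no test.

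The genes most like Fxyd4 over the 16 samples, by Pearson's r of the log2 signals as a description with no test, were Cyp2f2 (0.974), Tmc7 (0.961), Ces2g (0.959), Tgm3 (0.957) and Maob (0.957). Those most like Aqp8 were Gpt2 (0.948), Aldh2 (0.944), Cpm (0.936), Odf3b (0.933) and Tppp3 (0.930). The points share the 4 groups, so any gene that differs between them in the same way has a high r.

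Markers of other cell types also differed between the groups. Fewer cells of a type and less RNA per cell cannot be told apart in these samples. The mean of 11 markers of mature surface colonocytes, none of them a member, was lower by 0.14 in DSS_KO than in DSS_WT (-0.14 on the log2 scale) and lower in DSS_KO than in Naive_KO (-0.23), with overlapping groups. In the latter comparison 4 of the 11 were above 0 and 7 below it, and Muc3 was called (-1.21, limma adjusted p = 0.00467) with no overlap. The mean covers genes on both sides: in DSS_KO against DSS_WT 4 of the 11 were above 0, among them Krt20 (0.61) and Ceacam1 (0.40) with no overlap, and 7 were below 0, among them Slc20a1 (-0.93) and Cyp2c55 (-0.68) with overlap. The 8 goblet cell markers gave means of -0.42 and -0.47 with overlap. In DSS_KO against DSS_WT 5 of them were below 0, led by Fcgbp (-1.76), Clca1 (-1.09) and Zg16 (-0.74), and Spdef (0.32), Agr2 (0.27) and Muc2 (0.12) were above 0. DSS_KO replicate 7 was highest in its group for both lists (12.43 and 12.98). The mean of the 6 enteroendocrine markers gave -0.37 in DSS_KO against DSS_WT, -0.29 in Naive_KO against Naive_WT, -0.45 in DSS_WT against Naive_WT and -0.53 in DSS_KO against Naive_KO, with overlap in each. Among them Insl5 read -2.34 in DSS_KO against Naive_KO (adjusted p = 0.0232) and was not called.

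The mean of the leukocyte markers (6 of 10 genes tested) was higher with DSS without overlap, by 1.74 in WT and 1.79 in KO, with means of 6.45 to 8.10 in DSS samples and 5.03 to 5.91 in naive samples. Each of the 6 genes was higher without overlap in WT and 5 of them in KO, where the T cell gene Cd3g overlapped (0.17, adjusted p = 0.441). Called were Adgre1, Csf1r and Lyz2 in WT and Lyz2, S100a8 and S100a9 in KO. Of the 6 genes in the leukocyte mean, Cd3g and S100a9 were detected on 0 naive arrays and S100a8 on 0 Naive_WT arrays. These genes were thus near background there. Outside the mean, Itgam was detected on 0 arrays of all groups and Ptprc on 0 naive arrays. The 5 tested smooth muscle markers were lower in DSS_KO (7.94 to 9.15) than in DSS_WT (9.67 to 10.31) without overlap (-1.29). In that comparison Tagln (-1.60), Actg2 (-1.47) and Myh11 (-1.36) were called. The mean of the 5 smooth muscle markers was also lower in Naive_KO than in Naive_WT (-0.55), with all 5 genes below 0 and overlapping means. The mean of the 4 endothelial markers was lower without overlap in DSS_KO than in DSS_WT (-0.75) and in Naive_KO than in Naive_WT (-0.30), with 3 of the 4 genes below 0 in each comparison and Kdr above it (0.078 and 0.19, with overlap). Esam was called in DSS_KO against DSS_WT (-1.17). The mean of the fibroblast markers was lower in DSS_KO than in DSS_WT (-0.70), and it was higher in DSS_WT than in Naive_WT (0.92) and in DSS_KO than in Naive_KO (0.40), with overlap in each. In DSS_KO against DSS_WT all 6 fibroblast genes were below 0, 3 of them without overlap, and 0 were called. In DSS_WT against Naive_WT all 6 were above 0, 3 of them without overlap, and Sparc (1.44) and Lum (1.05) were called. The mean of the epithelial markers differed by at most 0.11 in any comparison, but single genes differed by more. Epcam read -0.62 in Naive_KO against Naive_WT and -0.54 in DSS_WT against Naive_WT, and Cdh1 read -0.37 in DSS_WT against Naive_WT, each with no overlap and not called. Cdx2 went the other way in the same list, with 0.46 in Naive_KO against Naive_WT and 0.57 in DSS_WT against Naive_WT, both with overlap, and 0.43 in DSS_KO against DSS_WT with no overlap, and it was not called. The part of these cell types in the members' differences was not tested.

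**Figure D4:**
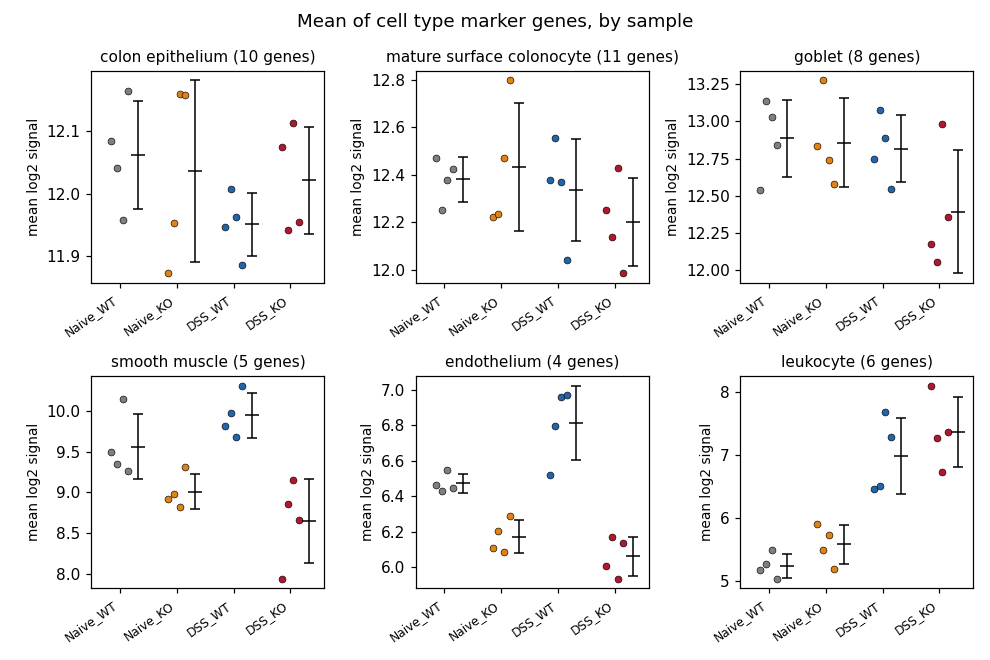
Points are the mean log2 signal (vertical axis, a separate range for each panel) of a list of marker genes in each of 16 samples, by group, with the mean ± SD of 4 samples beside them. Leukocyte markers are higher in both DSS groups, the means of smooth muscle and endothelial markers are lower in DSS_KO than in DSS_WT, and those of epithelial markers stay between 11.87 and 12.17.

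Beyond the members, 82 other genes of salt, bicarbonate, potassium and water transport and its control were listed, of which 81 had a probe and 62 were tested. Between KO and WT, 0 of the 62 were called with DSS and 0 without it, with 13 (21.0%) and 11 (17.7%) at an unadjusted p under 0.05 (limma), beside 21.6% and 23.0% of all genes. For DSS against naive, 2 rose and 0 fell in WT, and 2 rose and 2 fell in KO, with 15 (24.2%) and 26 (41.9%) at an unadjusted p under 0.05, beside 26.7% and 25.5% of all genes. These counts rest on the brightest probe of each gene. A dimmer probe of Tsc22d3, a gene induced by glucocorticoids, was called lower without overlap in WT (-1.20, limma adjusted p = 0.00211) and in KO (-1.15, adjusted p = 0.00317), while its brightest probe gave -0.39 and -0.70 and was not called. The median log2 difference of the 62 genes was -0.098 and -0.035 for KO against WT with and without DSS, and -0.057 and -0.073 for DSS in WT and KO.

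Clca4b, a member of the CLCA family of regulators of calcium-activated chloride channels, rose with DSS in WT by 3.32 (SE 0.374, limma adjusted p = 0.000245), from 6.23 ± 0.33 to 9.55 ± 0.75, and in KO by 2.67 (adjusted p = 0.000624), from 7.38 ± 0.83 to 10.04 ± 0.34. A second Clca4b probe gave 0.86 and -0.18 and was not called, so the probes disagree. Fxyd5, a relative of Fxyd4 that also binds the sodium/potassium pump, rose by 1.44 in WT (SE 0.280, adjusted p = 0.00432) and by 1.31 in KO (adjusted p = 0.00827). Its other 2 tested probes were not called: one gave 1.01 in WT and 1.13 in KO (adjusted p = 0.0184 and 0.0110), the other 0.61 and 0.47 (adjusted p = 0.0377 and 0.107). The brightest probe lost the call in KO under 13 of 25 alternatives and in WT under 7. Without single samples the call was lost in WT for DSS_WT replicate 3 (1.26) or 4 (1.40) and Naive_WT replicate 9 (1.35) or 12 (1.27), and in KO for 10 of the 16 samples (DSS_KO replicates 5 to 8, Naive_KO replicates 14 to 16, Naive_WT replicates 9 and 10 and DSS_WT replicate 4), with values from 1.11 to 1.40.

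Ano1, a calcium-activated chloride channel, fell with DSS in KO by 1.31 on the log2 scale (-1.31, SE 0.159, limma adjusted p = 0.000308), with a mean of 8.13 ± 0.33 in DSS_KO and 9.44 ± 0.10 in Naive_KO. In WT, Ano1 had means of 9.05 ± 0.19 with DSS and 9.67 ± 0.25 without it, with no overlap, and was not called. In DSS_KO against DSS_WT its groups did not overlap either, but the difference of -0.91 (adjusted p = 0.00418) missed the limit of 1. It passed that limit without DSS_KO replicate 7 (-1.01) or 8 (-1.001). Car2, a soluble carbonic anhydrase of the same family as Car1 and Car4, fell in KO with DSS (-1.11, SE 0.231, adjusted p = 0.00731) and read -0.99 in WT (adjusted p = 0.0130). The call in KO was lost without DSS_KO replicate 5 (-1.06), 6 (-1.08) or 8 (-0.99) and without Naive_KO replicate 14 (-1.06), 15 (-1.12) or 16 (-1.01), and the WT difference was called without DSS_WT replicate 1 (-1.18). A second, dim Car2 probe, with means of 5.11 in DSS_KO and 5.16 in Naive_KO, gave -0.054 (adjusted p = 0.915) and was not called.

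Atp1b1, the beta subunit of the sodium/potassium pump, read -0.51 for DSS_KO against Naive_KO (SE 0.132, adjusted p = 0.0228), with no overlap, and was not called. Atp12a, a colonic proton/potassium pump named after its values were seen, had the lowest value of the list for DSS_KO against DSS_WT (-2.47, SE 0.714, adjusted p = 0.0521), with DSS_KO samples from 5.29 to 9.91, and it was called without DSS_KO replicate 7 (-3.37). Its means were 9.62 ± 0.70 in Naive_WT, 8.30 ± 0.60 in Naive_KO, 9.68 ± 0.47 in DSS_WT and 7.20 ± 2.13 in DSS_KO. The naive groups overlapped. Best2, an anion channel of goblet cells named likewise, read -2.91 for DSS_KO against Naive_KO (adjusted p = 0.0104), and its dimmer probe was called (-2.79, adjusted p = 0.00912). The brighter probe was called without DSS_KO replicate 7 (-3.67), Naive_KO replicate 16 (-3.32) or Naive_WT replicate 9 (-2.91). Without DSS_KO replicate 7, Slc5a8 (-1.004) was also called for DSS_KO against Naive_KO, and Sgk2 (1.14) for Naive_KO against Naive_WT.

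**Figure D5:**
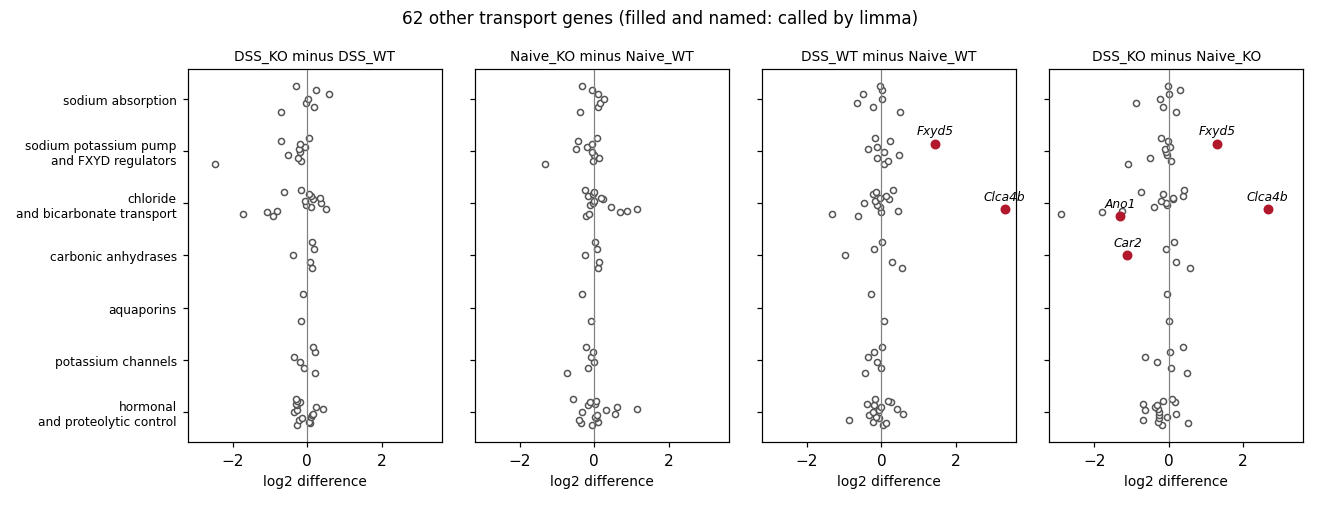
Each point is the log2 difference (horizontal axis) of 1 of 62 other transport genes in 4 comparisons, with the lists of genes in rows; filled points with a name were called by limma. Named points are seen in the panels of DSS against naive: Clca4b and Fxyd5 to the right in both, and Ano1 and Car2 to the left in KO.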

How the data were processed

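Per the file headers, the deposited intensity is the mean brightness of a probe's beads on a linear scale, not normalized, and beside it stands a detection p-value, the share of negative controls brighter than the probe. The deposited table also holds 2 scores for each signal that were not tested, the standard error and the number of beads (20 to 70 for member probes). The authors' software export was format version 1.1.1, and the submitters' processing notes name lumi and limma; the annotation build was not given in the sources used here.

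Signals of 45281 probes on 18 arrays were processed by neqc (limma 3.58.1, R 4.3.3, offset 16), which subtracts background from 936 negative controls, equalises the quantiles of the arrays and takes log2. The filter asked for a detection p under 0.05 on 4 or more arrays and kept 21938 probes; it removes transcripts near background in all groups. Arrays 4R and 5R were averaged with 4 and 5 (SD of the log2 difference 0.194 and 0.236, other pairs of their groups 0.287 to 0.482). One limma model with 4 group means was fitted to 16 samples (12 residual and 4.71 prior degrees of freedom, two-sided), with Benjamini-Hochberg adjustment over all probes of a comparison. The brightest tested probe stood for a gene. Of the probes, 29586 (65.3%) matched RefSeq by Entrez identifier and 3318 took a name through a RefSeq synonym. Of 23545 probes on the chromosome of their matched gene, 8.80% lay inside its GRCm38 span. The scripts were tested on simulated data. The number of arrays limits the precision.

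The members, the lists of other transport genes and of cell type markers, and the tests were chosen with earlier results of these data known. Named beyond the members were Scnn1b and Atp1b1, each called gene of the transport list, and the 5 genes most like Fxyd4 and Aqp8; 1 further gene of the rule is not reported here. Atp12a, Best2, Slc5a8, Sgk2, Tsc22d3 and single marker genes were named after their values were seen. Alternatives covered the background correction, scaling, filter, repeat arrays, samples fitted, limma-trend, probe choice and single samples.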

Additional observations from a re-analysis of the deposited data

Results flagged for a closer look

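Samples far from the other 3 of their group were searched for in 60 groups (15 genes in 4 groups), and 3 were found; chance marks about 1 in 20 groups. Aqp8 in DSS_WT replicate 4 read 8.02 against 9.33 to 9.55 in the other DSS_WT samples, and the gap filled 0.858 of the range of the group. Scnn1a in DSS_WT replicate 2 read 9.70 against 8.68 to 8.76 (0.921 of the range). Scnn1b in Naive_KO replicate 15 read 5.94 against 6.97 to 7.17 (0.842).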

How the results depend on the processing

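No paired analysis was possible because the 16 replicate numbers differ between all groups. Of 1111 member values under alternatives, 1107 moved by less than the spread between replicates and 4 by more. The sign changed in 43 of the 1111, which belong to 15 of 45 member differences, none above 0.26 in size and none of them called. Of 22 differences of at least 0.5 in size, 12 moved by over 1.5 times under an alternative. The 4 larger moves were these: without background correction Fxyd4 read -1.90 (DSS_KO against DSS_WT), -1.49 (DSS_KO against Naive_KO) and -0.46 (difference of genotype effects), and with scaling to a common median Cftr read -0.15 (DSS_WT against Naive_WT). Called members in DSS_KO against DSS_WT (1) numbered 0 without background correction and 2 with median scaling or with 18 separate arrays, and in DSS_KO against Naive_KO (2) they numbered 1 without background correction, without the filter or with the 2 groups alone and 4 with 18 separate arrays. Called other transport genes numbered 1 in DSS_KO against DSS_WT (0) with median scaling or 18 separate arrays. In DSS_WT against Naive_WT (2) they numbered 1 without background correction, without the filter or with the 2 groups alone, and in DSS_KO against Naive_KO (4) they numbered 2 without the filter or with the 2 groups alone. Leaving out 1 sample at a time, called members ranged from 0 to 2 for DSS_KO against DSS_WT and from 1 to 4 for DSS_KO against Naive_KO. Other transport genes then ranged from 0 to 2 for DSS_KO against DSS_WT, from 0 to 1 for Naive_KO against Naive_WT, from 1 to 3 for DSS_WT against Naive_WT and from 2 to 5 for DSS_KO against Naive_KO. Counts of 0 for the other comparisons stayed at 0. The cause of these shifts was not tested. Signal over background limits Scnn1g and the lowest Fxyd4 values.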
